A study of Rattus norvegicus with 6 samples.

Results

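Pdx1, Nkx6-1, Nkx2-2, Neurod1, Pax6, Isl1 and Rfx6, which encode transcription factors of the pancreatic islet, were followed in islets of fetal Sprague Dawley rats by RNA sequencing. The genes were taken by symbol from the deposited count tables, where all 7 were present among 17321 genes. For the libraries labelled high glucose (n = 3), fetuses of the left uterine horn were infused with glucose (4 mg/min over 48 h, beginning on gestational day 20). For the libraries labelled control (n = 3), the fetuses were normoglycemic and lay in the right horn of those dams, which gives 3 dam pairs. In both groups the islets of 2 pancreata were pooled on gestational day 22, freed by collagenase and hand-picking, and cultured for 24 h at 5 mM glucose before RNA extraction. No gene was altered by design, and because treatment always lay in the left horn, effects of side and of glucose cannot be told apart. The names of the deposited count files carry, in 6 of 6 libraries, the horn letter opposite to the one in the sample title. All directions are those of the treatment labels, and the other naming would reverse them.

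These factors act in sequence and side by side as the endocrine pancreas forms. Pdx1 marks the early pancreatic bud and later becomes concentrated in beta cells, and Nkx6-1 sets beta cells apart from alpha cells. Nkx2-2, Neurod1, Pax6, Isl1 and Rfx6 are needed in mice for one or more of the hormone-producing cell types and remain active in mature islet cells. Most of them are homeodomain proteins, whereas Neurod1 is a basic helix-loop-helix protein and Rfx6 a winged-helix protein of the RFX family.

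RefSeq promoter windows (GRCr8 build, 250 bases before to 50 after each gene's start) were available for 6 of the 7 genes and are not given here for Rfx6. They were searched on both strands for the core letters bound by these families, namely CANNTG (the E-box of basic helix-loop-helix proteins), TAAT (homeodomain proteins), AAGTG (NK2 proteins) and GTTGCC (a half-site of RFX proteins). The windows printed, 5′ to 3′ along each gene, are those of the pair of genes whose levels were most alike across libraries (Nkx6-1 and Nkx2-2) and of the pair least alike (Pdx1 and Isl1). Capitals mark every match, and matches that overlap or touch run together, as do 2 E-boxes and an AAGTG in Pdx1.
Nkx6-1 (chr14:8273988-8274287, plus strand): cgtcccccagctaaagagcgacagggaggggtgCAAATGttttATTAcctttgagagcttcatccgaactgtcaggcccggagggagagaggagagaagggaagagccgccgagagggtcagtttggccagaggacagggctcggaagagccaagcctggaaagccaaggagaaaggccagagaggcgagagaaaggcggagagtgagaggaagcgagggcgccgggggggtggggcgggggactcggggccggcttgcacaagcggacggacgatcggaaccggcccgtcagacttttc
Nkx2-2 (chr3:155075573-155075872, minus strand): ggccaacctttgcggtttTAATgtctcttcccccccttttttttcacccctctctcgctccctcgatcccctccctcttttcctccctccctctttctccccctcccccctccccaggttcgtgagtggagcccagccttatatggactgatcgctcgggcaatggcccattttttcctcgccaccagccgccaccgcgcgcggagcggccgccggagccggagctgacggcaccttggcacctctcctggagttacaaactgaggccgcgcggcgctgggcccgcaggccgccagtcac
Pdx1 (chr12:12799107-12799406, minus strand): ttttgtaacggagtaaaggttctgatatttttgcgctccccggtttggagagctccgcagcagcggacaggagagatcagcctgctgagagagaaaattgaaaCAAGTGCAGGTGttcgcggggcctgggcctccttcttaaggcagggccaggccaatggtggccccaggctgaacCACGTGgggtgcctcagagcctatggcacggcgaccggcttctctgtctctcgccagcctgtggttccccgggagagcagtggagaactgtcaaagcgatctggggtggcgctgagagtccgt
Isl1 (chr2:49823393-49823692, minus strand): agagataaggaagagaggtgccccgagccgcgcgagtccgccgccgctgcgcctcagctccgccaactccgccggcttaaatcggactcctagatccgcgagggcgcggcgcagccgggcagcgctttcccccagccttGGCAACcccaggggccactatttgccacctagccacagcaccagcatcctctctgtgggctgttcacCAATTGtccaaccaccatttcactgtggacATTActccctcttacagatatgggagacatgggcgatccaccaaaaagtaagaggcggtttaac

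The most alike genes did not share an E-box, since Nkx6-1 had 1 and Nkx2-2 had 0, but each had 1 TAAT. Pdx1 had 3 E-boxes and 1 AAGTG, and Isl1 had 1 E-box, 1 TAAT and the GTTGCC half-site that was found in none of the other 5 windows searched. E-boxes were present in 4 of the 6 windows against 72.1% of 33469 RefSeq windows of this length, TAAT in 3 against 60.6%, AAGTG in 2 against 46.2% and GTTGCC in 1 against 12.2%. The shares among so few genes lie near those of all promoters, and a match is a run of letters, not a measured binding site.

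Total counts per library lay between 18077841 and 30993532. The insulin genes Ins1 and Ins2 together took 1.86%, 0.947% and 0.505% of the counts in the high glucose libraries of pairs 1 to 3, against 1.16%, 1.18% and 2.13% in the control libraries. The 7 factors together took 0.0382%, 0.0105% and 0.00964% in high glucose, against 0.0224%, 0.0112% and 0.0203% in control. The endocrine markers that the islet label calls for were thus present in every library, although 10 mesenchyme markers took a larger share, 2.72% to 3.75% in high glucose against 2.07% to 4.23% in control. In such bulk libraries fewer endocrine cells and less RNA per endocrine cell cannot be told apart. Levels are given as counts per 1000000 (CPM) after TMM scaling, which adjusts the library totals so that most genes are level between libraries.

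Pdx1 and Nkx6-1, the factors most tied to beta cell identity, were higher in high glucose in pair 1 and lower in pairs 2 and 3. Pdx1 (rn6 chromosome 12, 9496044 to 9501211) had 84.1, 35.3 and 25.8 CPM in the high glucose libraries of pairs 1, 2 and 3, against 44.6, 45.6 and 62.9 CPM in the control libraries. The high glucose library of pair 1 was the highest of the 6 and that of pair 3 the lowest, so the groups overlapped. The fitted log2 difference was -0.25 (SE 0.44, 95% interval -1.37 to 0.87). Nkx6-1 (chromosome 14, 9555264 to 9562191), which represses alpha cell genes in beta cells, had 50.2, 17.3 and 17.1 CPM in high glucose against 26.6, 21.7 and 27.3 CPM in control. Its control libraries stayed close together, and the high glucose libraries lay on both sides of them. The fitted log2 difference was -0.03 (SE 0.31, 95% interval -0.74 to 0.68).

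Nkx2-2 and Neurod1, which act in several endocrine cell types, had the same signs. Nkx2-2 (chromosome 3, 141408798 to 141411170), whose loss in mice replaces beta cells by ghrelin cells, had 35.5, 9.96 and 9.68 CPM in high glucose against 18.2, 14.7 and 19.0 CPM in control. All 3 control values lay between the high glucose library of pair 1 and those of pairs 2 and 3, with a fitted log2 difference of -0.19 (SE 0.38, 95% interval -1.08 to 0.70). Neurod1 (chromosome 3, 66414321 to 66417617), which drives insulin gene transcription, had 93.2, 13.2 and 11.0 CPM in high glucose against 38.9, 17.4 and 39.2 CPM in control. It varied more than any other of the 7, by 8.48-fold between its highest and lowest library, against 2.94-fold to 5.06-fold for the others. Its fitted log2 difference of -0.32 (SE 0.74) accordingly had the widest interval of the 7, from -2.49 to 1.85.

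Pax6 and Isl1 differed from these in pair 2, where they were higher in high glucose. Pax6 (chromosome 3, 95707386 to 95728383), needed in mice for alpha cells and for hormone gene transcription, had 61.6, 19.1 and 12.2 CPM in high glucose against 44.4, 13.1 and 32.7 CPM in control. Isl1 (chromosome 2, 48488911 to 48501217), a LIM homeodomain factor required for endocrine cells to form, had 27.8, 17.2 and 10.9 CPM in high glucose against 20.9, 7.42 and 18.3 CPM in control. Both were high in pair 1 and low in the control library of pair 2, and their groups overlapped. The fitted log2 difference was -0.12 (SE 0.43, 95% interval -1.17 to 0.94) for Pax6. It was 0.28 (SE 0.36, 95% interval -0.55 to 1.12) for Isl1, the only positive estimate among the 7. Rfx6 (chromosome 20, 32717564 to 32764035), which in mice is needed for all islet cell types except the PP cells, was the least abundant, with 10.7, 4.54 and 3.24 CPM in high glucose against 7.62, 5.01 and 7.78 CPM in control. Its fitted log2 difference was -0.30 (SE 0.38, 95% interval -1.15 to 0.56).

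**Figure D1:**
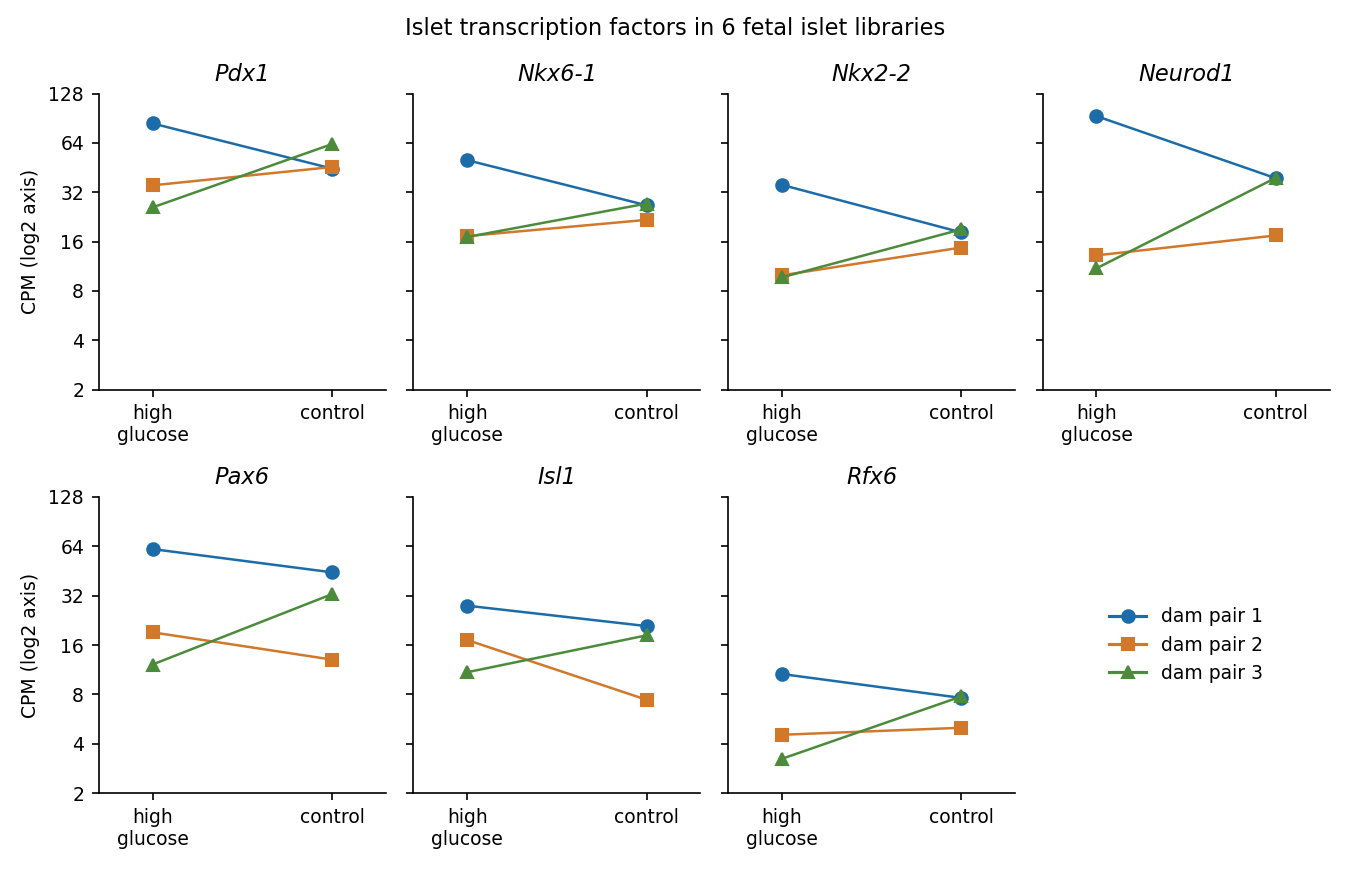
CPM of each of the 7 factors (log2 axis, the same in every panel) in the libraries labelled high glucose (left) and control (right), with a line for each dam pair. All 7 lines of pair 1 are higher in high glucose and all 7 lines of pair 3 are lower, and in pair 2 Pax6 and Isl1 are higher and the other 5 lower.

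The comparison of infused with control fetuses asked whether these factors changed with hyperglycemia. None of the 7 passed edgeR's quasi-likelihood test with dam as a block (adjusted p of 0.9996 for each over 12276 genes tested), where 0.0163% of all genes passed at an adjusted p below 0.05. None reached an unadjusted p below 0.05 in edgeR's test either (lowest 0.456, for Isl1), which 4.82% of all genes did. DESeq2 called 106 of the 12276 genes and 0 of the 7. The CPM ranges of the groups overlapped for 7 of 7, as they did for most tested genes (3.31% had ranges that did not overlap). The median fitted log2 difference was -0.19 over the 7 and 0.00412 over all genes tested. The 95% intervals reached below -1 on the log2 scale for Pdx1, Nkx2-2, Neurod1, Pax6 and Rfx6 and above 1 for Neurod1 and Isl1, so equal levels are not shown. That of Nkx6-1 lay within these limits, but it leans on the variance of other genes. The differences of Nkx6-1 within pairs had an SD of 0.84. When counts were simulated for this design over 12185 genes, the procedure recovered 43% of genes changed 2-fold and 91% of those changed 4-fold, with 13 false calls. The changed genes were drawn from all those tested and simulated without differences between dams. The SD over the pairs had a median of 1.02 for the 7 factors, against 0.33 over tested genes with a mean count of at least 100. The recovery rates therefore need not hold for the 7.

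The direction of several estimates hung on single pairs, and 0 of the 7 passed the adjusted threshold without pair 1 (0.148% of all genes did) or without pair 3 (0.447%). Without pair 1 no estimate changed sign, the median of the 7 was -0.72, and Pdx1 (-0.83), Nkx2-2 (-0.77) and Neurod1 (-1.13) reached an unadjusted p below 0.05 in edgeR's test (6.18% of all genes did), with adjusted p between 0.365 and 0.685. Without pair 2 the estimates of Nkx6-1 (0.12), Nkx2-2 (0.0052) and Isl1 (-0.16) changed sign. Without pair 3 the median was 0.31 and all 7 estimates were positive. Isl1 then had a log2 difference of 0.80 and an unadjusted edgeR p of 0.0138 (adjusted p = 0.593), and 4.56% of all genes passed that unadjusted threshold. Fits without a pair hold little of each gene's own spread, so their p-values lean on the variance of other genes. Neurod1, for example, differed by -0.40 in pair 2 and by -1.83 in pair 3.

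**Figure D2:**
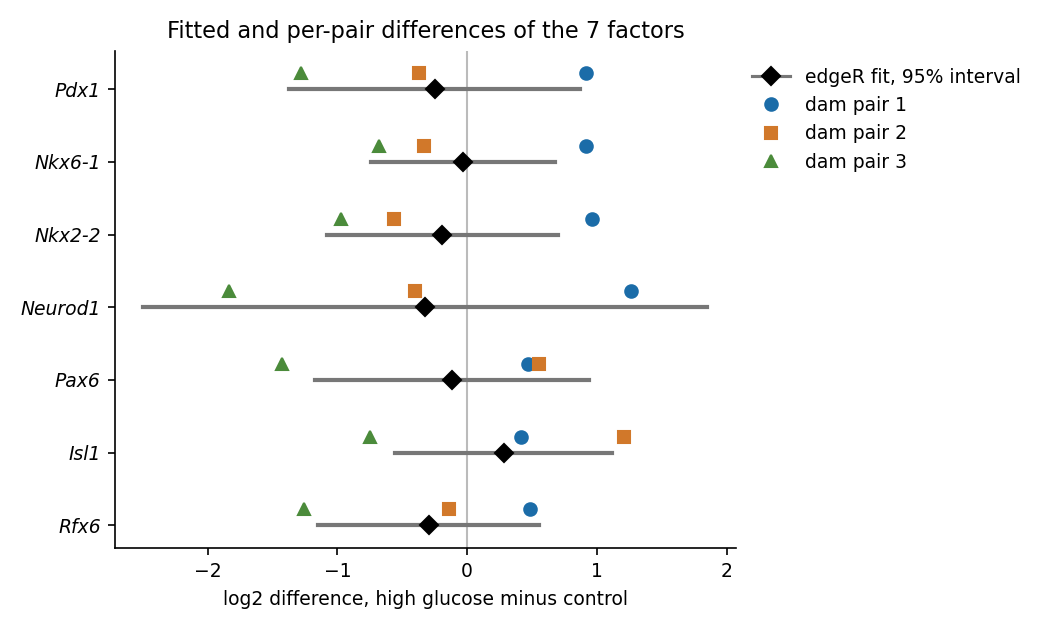
Log2 difference between the libraries labelled high glucose and control for each factor: the edgeR estimate with its 95% interval (diamond and bar) and the difference within each dam pair (coloured symbols). Every interval includes 0, and for each gene pairs 1 and 3 lie on opposite sides of 0.

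Within a pair the factors had largely the same sign. The log2 difference of high glucose over control was positive for 7 of 7 in pair 1 (0.41 for Isl1 to 1.26 for Neurod1, median 0.91). In pair 2 it was positive for 2 of 7 (Isl1 at 1.21 and Pax6 at 0.55), with a median of -0.33 and the lowest value for Nkx2-2 at -0.56. In pair 3 it was negative for 7 of 7 (-1.83 for Neurod1 to -0.68 for Nkx6-1, median -1.26). Over all tested genes 50.1%, 52.0% and 48.7% were positive in pairs 1 to 3, with medians of 0.0014, 0.02 and -0.02. None of the 7 kept one direction in all 3 pairs, which 23.0% of all genes did. The counting error of these differences was small beside them, with a standard error between 0.05 and 0.12 log2 units in pair 1 and between 0.06 and 0.17 in pair 3. In pair 2, the pair with the lowest totals, it was 0.08 to 0.22, so the difference of -0.14 for Rfx6 there lay within its counting error of 0.22. The SD of the difference over the 3 pairs ran from 0.84 for Nkx6-1 to 1.55 for Neurod1 (median 1.02), against a median of 0.33 over the 10299 tested genes with a mean count of at least 100.

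The content of endocrine RNA differed in the direction of the factors in pairs 1 and 3. The counts of 10 pan-endocrine secretory genes (granins, secretogranins, carboxypeptidase E and others) summed to 5192, 2224 and 2236 CPM in high glucose against 3052, 2119 and 4088 CPM in control, which gives log2 differences of 0.77, 0.07 and -0.87 in pairs 1 to 3. The 7 factors summed to 363, 117 and 89.9 CPM in high glucose against 201, 124.9 and 207 CPM in control, or 0.85, -0.10 and -1.20. In pair 2 the sums of the endocrine genes and of the factors differed in sign. Markers of several other cell types also differed within pairs. Of those tested, 6 of 6 red cell markers and 8 of 10 immune markers were lower in high glucose in all 3 pairs (11.3% of all genes were). Markers of mesenchyme and acinar cells, which mostly changed sign between pairs, are given here by pair. Of 9 mesenchyme markers tested, 9 were higher in high glucose in pair 1, 3 in pair 2 and 1 in pair 3 (median log2 differences of 0.53, -0.28 and -0.29), signs close to those of the factors. Over the 6 libraries, however, Pearson's r of their log2 CPM with the mean of the 7 factors ran from -0.59 (Col1a1) to 0.79 (Lum). Of 9 acinar enzyme genes tested, 1 was higher in high glucose in pair 1, 9 in pair 2 and 8 in pair 3. The 10 acinar markers took 0.0175% to 0.142% of counts in high glucose and 0.00361% to 0.0959% in control, and of these Pnlip alone had libraries at 0 counts, while no mesenchyme marker did. The part of endocrine, mesenchymal, acinar or other cell content in the differences of the factors was not tested.

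Set against the pan-endocrine sum, the differences were closer to 0 than in CPM for 7 of 7 factors in pairs 1 and 3 and for 2 of 7 in pair 2. Some of them changed sign, namely Pax6 (-0.30), Isl1 (-0.35) and Rfx6 (-0.28) in pair 1, and Nkx6-1 (0.19) and Isl1 (0.12) in pair 3. The 7 together had 69.9, 52.4 and 40.2 counts per 1000 pan-endocrine counts in high glucose, against 66.0, 59.0 and 50.7 in control. The log2 differences were 0.08, -0.17 and -0.33 in pairs 1 to 3. Rfx6 had 2.05, 2.04 and 1.45 per 1000 in high glucose against 2.497, 2.36 and 1.90 in control, lower in all 3 pairs on this scale (-0.28, -0.21 and -0.39). Isl1 had 5.36, 7.73 and 4.89 against 6.85, 3.50 and 4.49, so its log2 difference in pair 2 was 1.14 on this scale. Neurod1 had 17.9, 5.93 and 4.92 against 12.8, 8.23 and 9.58 with a log2 difference of -0.96 in pair 3. Pdx1, Nkx6-1, Nkx2-2 and Pax6 lay between -0.63 and 0.48 in every pair.

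These ratios depended on the genes used as the scale. Chgb (chromogranin B), the most abundant of the 10, had a log2 difference of 0.14 in pair 3, while the other 8 tested genes of the list lay between -2.30 and -0.18. Without Chgb the pair 3 difference of the 7 factors together was 0.36 instead of -0.33, that of Rfx6 was 0.30 and that of Neurod1 -0.27. On that scale Nkx6-1 (0.88) and Isl1 (0.81) in pair 3 were larger in size than in CPM (-0.68 and -0.75). The other factors stayed smaller there, so the count of 7 of 7 for pair 3 depended on Chgb. Against Ins1 and Ins2 the 7 factors together had 20.5, 11.1 and 19.1 counts per 1000 in high glucose and 19.4, 9.45 and 9.52 in control, which is higher in all 3 pairs (log2 differences of 0.08, 0.24 and 1.01). In pair 3 the insulin genes were thus further down in high glucose than the factors were, with log2 differences of -2.02 for Ins1 and -2.46 for Ins2. The higher ratio of Isl1 in pair 2 held on all 3 scales (1.14, 1.04 and 1.55).

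**Figure D3:**
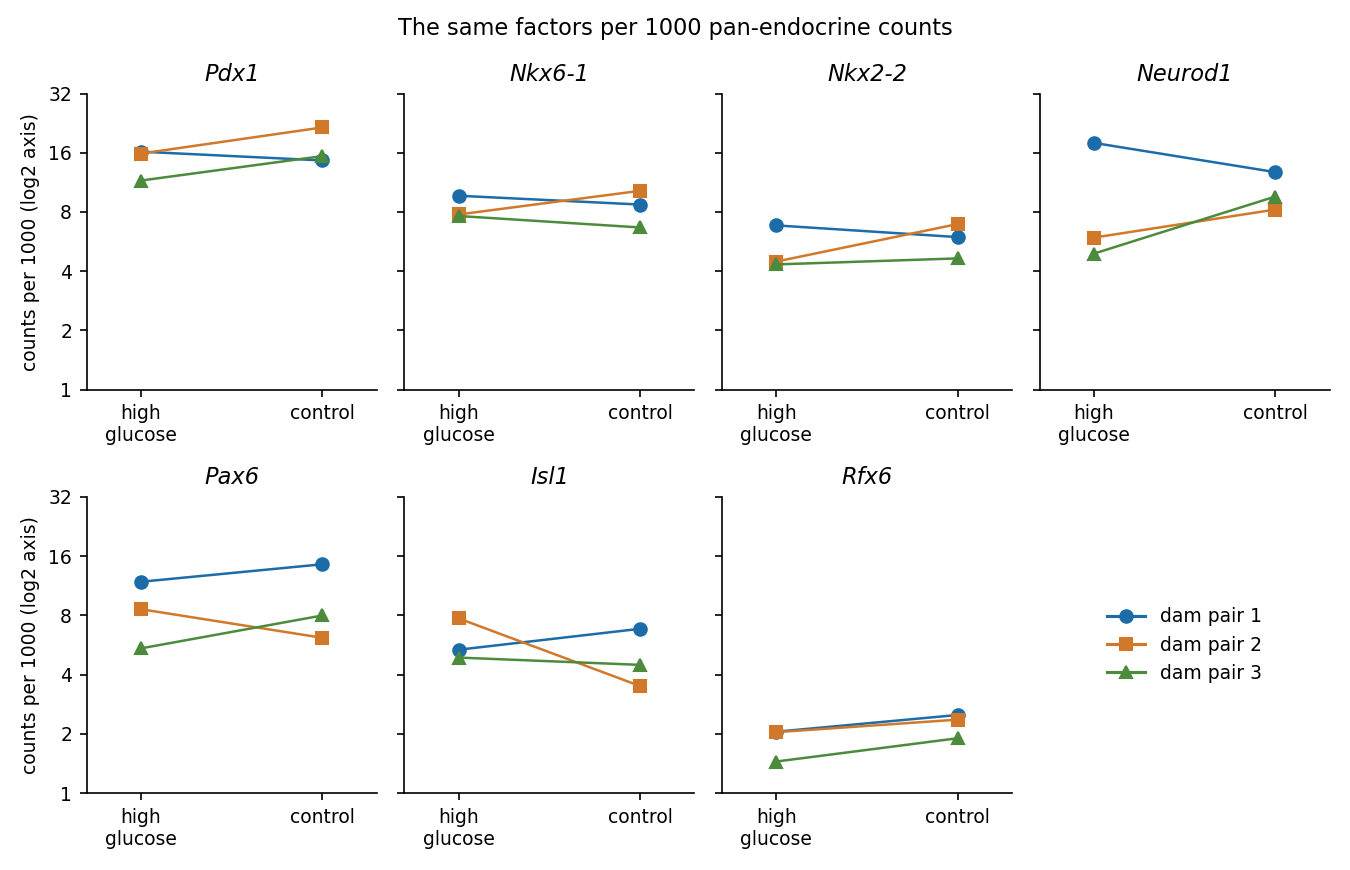
Counts of each factor per 1000 counts of the 10 pan-endocrine genes (log2 axis, the same in every panel), in high glucose (left) and control (right) libraries by dam pair. In pairs 1 and 3 the log2 differences of all 7 are smaller in size than in CPM, although slopes cannot be compared by eye because the axes span different ranges. The steepest line here is that of Isl1 in pair 2 (log2 difference 1.14).

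Levels of the 7 genes were compared with each other per exon length, as transcripts per 1000000 (TPM). Pdx1 was the highest and Rfx6 the lowest in 6 of 6 libraries. Pdx1 averaged 59.5 ± 43.5 TPM in high glucose and 57.6 ± 13.5 TPM in control (SD, n = 3 each), and Rfx6 3.34 ± 2.44 and 3.49 ± 1.29 TPM. Neurod1 (37.6 ± 47.1 in high glucose, 28.4 ± 14.4 in control), Isl1 (29.2 ± 15.5, 24.0 ± 14.1), Pax6 (24.5 ± 23.3, 23.2 ± 15.5) and Nkx2-2 (22.7 ± 19.98, 19.5 ± 5.52) came between. Each of the first 3 of these exceeded the next in 4 of 6 libraries, so their order was not settled beyond the spread. Nkx2-2 exceeded Nkx6-1 (15.0 ± 11.3 in high glucose, 12.3 ± 3.44 in control) in 6 of 6 libraries. The TPM of a gene leaves out reads beyond its annotated exons, of 1060 bases for Isl1 to 3215 for Nkx6-1, so the order holds for these gene models.

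The share of each factor in the 7 also varied between libraries. Pdx1 made up 28.9%, 35.6% and 34.8% of their summed TPM in high glucose, against 27.5%, 44.4% and 36.8% in control. Isl1 made up 12.4%, 22.5% and 19.0% in high glucose, against 16.7%, 9.35% and 13.9% in control. Neurod1 made up 24.2%, 10.1% and 11.2% against 18.2%, 12.8% and 17.3%. Pdx1, Isl1 and Neurod1 did not keep one direction. In high glucose Isl1 took a smaller share in pair 1 and a larger one in pairs 2 and 3, and Pdx1 and Neurod1 the reverse. Rfx6 held a narrow share of 1.62%, 2.03% and 1.93% against 2.08%, 2.16% and 2.01%. This share was lower in high glucose in all 3 pairs, with differences of -0.46, -0.13 and -0.08 percentage points in pairs 1 to 3.

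**Figure D4:**
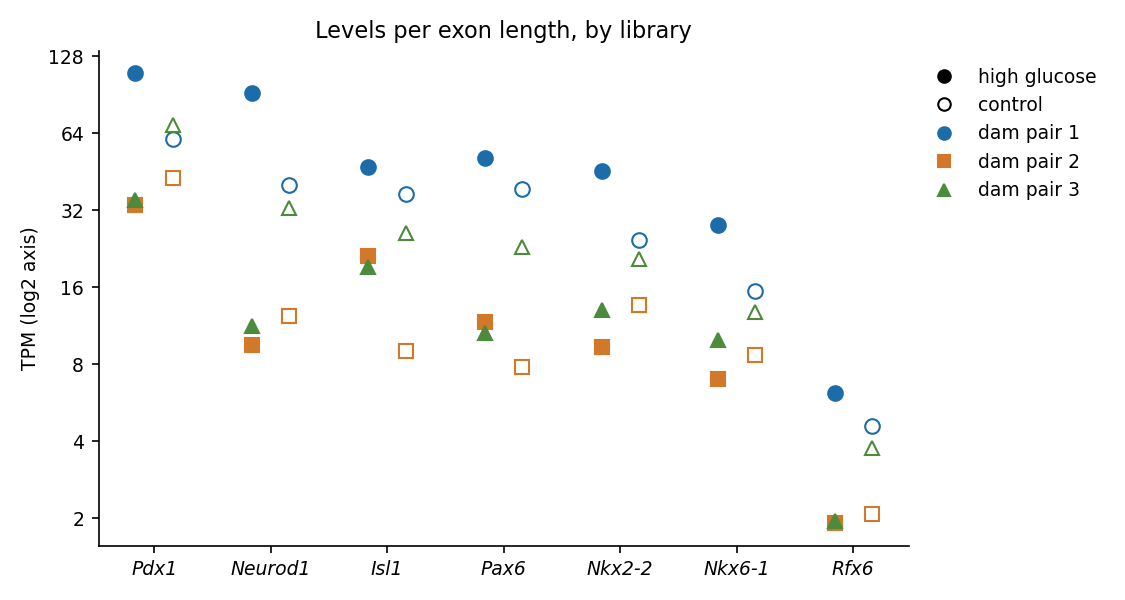
TPM of the 7 factors (log2 axis), ordered by mean, in high glucose (filled, left) and control (open, right) libraries, with colour and shape for the dam pair. Pdx1 stands highest and Rfx6 lowest in every library, and the genes between them overlap.

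Likeness of pattern was measured as Pearson's r of log2 CPM over the 6 libraries, which share dams and differ in endocrine content and depth, so it is a description. Among the 21 pairs of factors r ran from 0.58 (Pdx1 and Isl1) to 0.99 (Nkx6-1 and Nkx2-2), with a median of 0.92. Isl1 was the least like the others (r of 0.74 with their mean) and Neurod1 the most (0.99). Of 10292 other genes with a mean count of at least 100, 175 had r above 0.9 with the mean of the 7, which is 1.70%. The 10 most alike were Cntn1 (contactin 1, a neural adhesion protein), Nfasc (neurofascin), Gucy1b3 (a soluble guanylate cyclase subunit), Kcnj11 (the pore of the ATP-sensitive potassium channel of beta cells), Camk2b (a calcium-dependent kinase), Mthfs (a folate enzyme), Cacna1b (a calcium channel subunit), Col9a1 (a collagen IX chain), Wwox and Cadps (a protein that primes secretory vesicles), with r between 0.985 and 0.997. Cntn1 had log2 differences of 1.05, 0.09 and -1.87 in pairs 1 to 3, and Kcnj11 0.47, 0.12 and -0.71.

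Genes known as targets of these factors mostly had the sign of the factors in pairs 1 and 3. Of 21 tested, 19 were higher in high glucose in pair 1, 14 in pair 2 and 1 in pair 3, and 0 passed the edgeR test over all genes. Their median fitted log2 difference was -0.21, and their medians within pairs were 0.49, 0.12 and -1.47. The lowest estimates were those of Iapp (islet amyloid polypeptide, -0.82, SE 0.60) and Sst (somatostatin, -0.73, SE 0.29, edgeR adjusted p = 0.952), and the highest those of the calcium channel genes Cacna1c (0.39, SE 0.24) and Cacna1d (0.17, SE 0.30). Cacna1c was the 1 target that was higher in pair 3. Hormone genes that Pax6 and Isl1 are known to activate had mixed signs in pair 2, where both factors were higher, with log2 differences of 0.80 for the glucagon gene Gcg, -0.28 for Ins1, -0.41 for Ins2 and -1.22 for Sst.

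Partners and cofactors of the factors, which most cell types express, differed less between pairs. Of 19 tested, 15 were higher in high glucose in pair 1, 6 in pair 2 and 17 in pair 3, where 7 of 7 factors were lower. None passed the test, their median was 0.14, and their pair medians were 0.17, -0.14 and 0.48. Among them were the highest estimates of Setd7 (a lysine methyltransferase, 0.37, SE 0.30) and Smarca4 (an ATPase of chromatin remodelling, 0.34, SE 0.21), and the lowest of Psmd9 (a proteasome chaperone, -0.27, SE 0.20) and Tle3 (a corepressor, 0.00062, SE 0.18). The SD of the differences over the 3 pairs had a median of 0.34 for these genes with a mean count of at least 100, against 1.02 for the 7 factors and 1.34 for the targets.

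Other transcription factors of pancreas development had mixed signs in each pair. Of 32 listed, 28 were counted under a matching symbol, 25 were tested and 0 passed, and Nkx6-2 had no count in any library. Their median was -0.12, with pair medians of 0.20, -0.26 and -0.25. The highest estimate was that of Onecut1 (1.296, SE 0.60), a factor of progenitor and duct cells, and the lowest that of Pou3f4 (-0.61, SE 0.50), a factor of alpha cells. Onecut1 had 213, 19 and 309 counts in high glucose against 76, 23 and 50 in control, higher in pairs 1 and 3 and lower in pair 2.

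**Figure D5:**
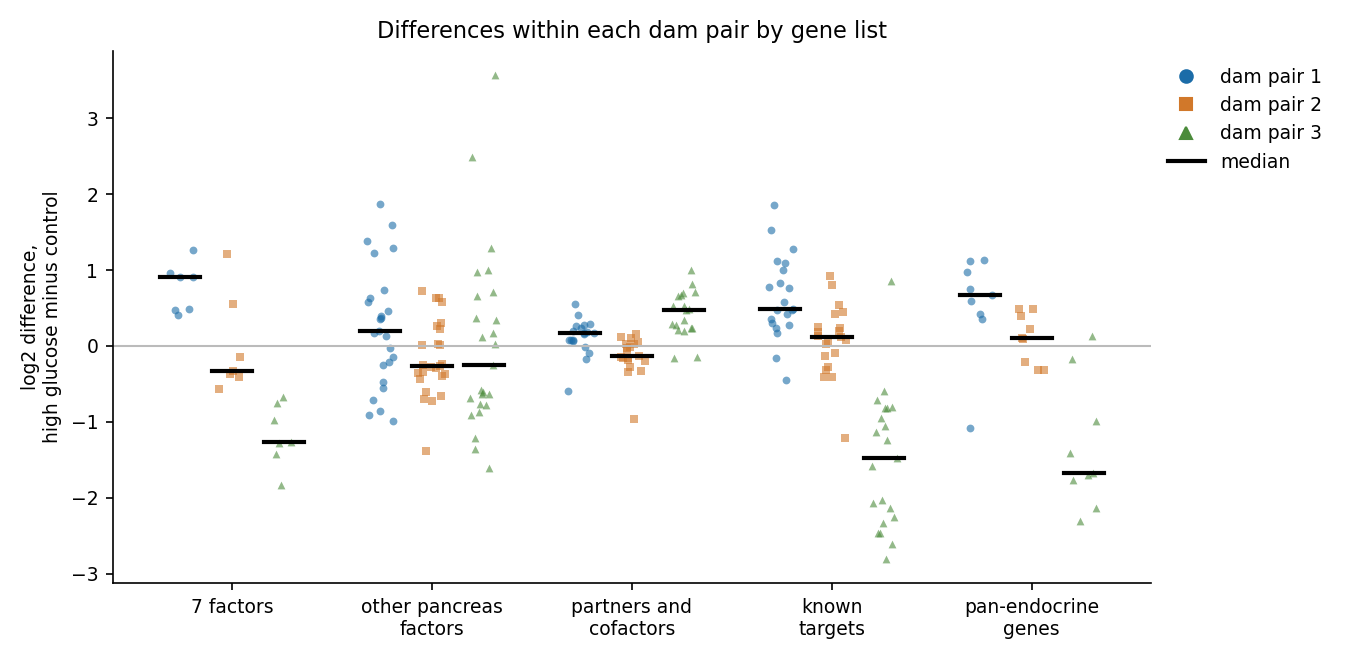
Log2 difference of high glucose over control within each dam pair for every tested gene (points) of 5 lists, with the median of each list (black bar). The 7 factors, their known targets and the pan-endocrine genes lie mostly above 0 in pair 1 and mostly below 0 in pair 3, while partners and cofactors lie mostly above 0 in pairs 1 and 3, with medians of 0.17 and 0.48.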

How the data were processed

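Islet RNA from 6 pooled fetal samples was sequenced (stranded poly(A) kit, per the labels' protocols). Per the file headers, the authors counted read pairs per gene with featureCounts 1.5.1 and deposited these raw counts (reverse-strand setting 2, mapping quality of at least 10, UCSC refGene annotation of rn6). STAR 2.5, edgeR 3.12.1 and the mouse build mm10 are also named in the submitters' processing notes. Reads outside annotated exons or with an ambiguous position were not counted.

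Genes were tested on the counts with edgeR 4.0.16 in R 4.3.3 (TMM, filterByExpr, robust quasi-likelihood F-test, treatment with dam as block, adjusted p below 0.05 by Benjamini-Hochberg), which left 12276 genes with 99.95% of the counts. Intervals are 95% and signs are high glucose minus control. P-values and intervals rest on the spread between these 3 pairs, with each gene's variance drawn toward that of other genes. They do not measure a gene's own spread over the pairs alone. Differences within a pair use CPM with 0.5 counts added, log2 CPM for likeness a prior count of 2, and TPM the length in the files. Alternatives were limma 3.58.1 (voom), DESeq2 1.42.0, other scalings and filters, no block and leaving out a pair. The pairing comes from the series design. Same-dam libraries deviated together from their group means (r across genes of 0.474, 0.621 and 0.413). Between different dams r was -0.454 to -0.004. Deviations cancel out within a group, so positive same-dam values force negative ones between dams on average. The latter add no separate support for the pairing. The procedure was tested on simulated data.

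The factors and lists were chosen with earlier results of these data known. Beside the 7, the rule names the 2 highest and 2 lowest estimates per list with a mean count of at least 20 and the 10 genes most alike; other genes, Chgb among them, were named after their values were seen. Some single-gene results are left out here. Of 162 list entries 10 had no match and 1 was matched by a synonym in a RefSeq table of GRCr8.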

Additional observations from a re-analysis of the deposited data

How the results depend on the processing

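None of the 7 factors was called under any of the 10 alternatives run. The 2 genes called over all genes, neither one a factor, became 4 with upper-quartile factors, 14 with library sizes set by the pan-endocrine genes, 18 with no filter, 106 with DESeq2, 1 with limma voom, 0 with no replicate block (192 at an unadjusted p below 0.05) and 18 to 55 without one pair. The dam pairing mattered for the sign of 4 estimates. With no replicate block Nkx6-1 was 0.16, Nkx2-2 0.087, Neurod1 0.30 and Pax6 0.042, so that the median of the 7 was 0.09 in place of -0.19, and with limma voom Nkx6-1 was 0.061. Leaving out one pair gave ranges of -0.83 to 0.28 for Pdx1, -0.51 to 0.31 for Nkx6-1, -0.77 to 0.22 for Nkx2-2, -1.13 to 0.45 for Neurod1, -0.47 to 0.51 for Pax6, -0.16 to 0.80 for Isl1, -0.72 to 0.18 for Rfx6 and -0.72 to 0.31 for the median. Chosen after seeing the data, scaling the 7 together to pan-endocrine genes without Chgb gave a mean log2 difference of 0.04 and to Ins1 and Ins2 0.44, against -0.14 with the full list (-0.25 to -0.04 without one pair). The cause was not tested. With 3 pairs and differences that change sign between them, changes of 2-fold in these genes could be missed.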
